A study of Homo sapiens with 6 samples.

Results

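THE1 elements are a group of primate retrovirus-like repeats, and the 8 entries described here are the long terminal repeats (LTRs) THE1A, THE1B, THE1C and THE1D with the internal region of each, THE1A-int to THE1D-int. They were taken by name from a table of 15600 repeat entries, of which 1366 are not simple or low-complexity repeats. A ninth row name, THE1-int, also starts with THE1 but carries no subfamily letter, and it is given apart from the 8. Total RNA came from H9, a widely used line of human embryonic stem cells, with 6 libraries in all and 2 per group. RSeT+DT cells were held in RSeT medium, a commercial medium for a naive-like state, and received 10 nM DZNep and 5 nM TSA for 48 hours before collection. RSeT cells were held in the same medium with neither compound, and primed cells were grown in mTeSR. DZNep blocks S-adenosylhomocysteine hydrolase and so lowers methylation by enzymes such as EZH2, and TSA (trichostatin A) blocks histone deacetylases.

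THE1 belongs to the mammalian apparent LTR retrotransposons (MaLR), relatives of the ERVL retroviruses that also include the MST and MLT1 elements. An LTR holds the promoter and the signal for the end of the transcript, and many genomic copies are solitary LTRs that lost their internal region by recombination. The internal region lies between a pair of LTRs and, in THE1, does not encode a reverse transcriptase, so these elements depended on other elements to move. Among the subfamilies THE1A is regarded as the youngest and THE1D as the oldest. THE1B LTRs are known to act as promoters or enhancers of human genes, among them a THE1B LTR that drives CSF1R in Hodgkin lymphoma and another that acts upstream of CRH in placenta.

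Each value sums reads over all genomic copies of an entry, so it has no single coordinate, and related subfamilies can share reads. Copies in introns or untranslated regions also collect reads of the host transcript, whose part in the results was not tested. As these are bulk libraries, more or fewer cells with THE1 RNA and more or less THE1 RNA per cell cannot be told apart. Copy lengths were not used here, so levels are compared between libraries and not between entries. The libraries held 13064045 and 11520770 repeat counts for RSeT+DT, 38312112 and 17191110 for RSeT and 16838730 and 13628911 for primed cells. HERVH-int is the internal part of a retrovirus active in pluripotent cells, and CPM are counts scaled to the library's total. It stood at 114855 to 118627 CPM in RSeT+DT, 73442 to 75615 in RSeT and 23829 to 26519 in primed cells. HERVK-int, a repeat high in naive-like cells, stood at 16530 to 17480 CPM in RSeT+DT, 19229 to 20070 in RSeT, against 336 to 344 in primed cells.

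Together the 8 entries took 0.488 ± 0.013% of repeat counts in RSeT+DT, 0.633 ± 0.018% in RSeT, against 0.585 ± 0.017% in primed cells (SD, n = 2 each). The counts behind these shares were 62519 and 57295 in RSeT+DT, 237870 and 111040 in RSeT, and 96433 and 81408 in primed cells. The RSeT libraries were thus highest and the RSeT+DT libraries lowest, with no overlap between groups. 7SLRNA, the RNA component of the signal recognition particle, had its lowest level in RSeT, with 191692 to 212616 CPM in RSeT+DT, 141036 to 147245 in RSeT, against 205322 to 221134 in primed cells. The RSeT+DT and primed ranges of 7SLRNA overlapped. HERVH-int, another abundant entry, was highest in RSeT+DT and lowest in primed cells. The part of either entry in these shares was not tested.

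Among the LTRs, THE1B was listed at 1258 and 1336 CPM in RSeT+DT, 1711 and 1785 in RSeT, and 1703 and 1783 in primed cells. The RSeT+DT libraries were low and the RSeT and primed libraries overlapped. THE1D, the oldest of the 4, had the same pattern, with 636 and 648 CPM in RSeT+DT, 836 and 871 in RSeT, and 823 and 865 in primed cells. THE1C differed from both in that all 3 groups stood apart, with 491 and 524 CPM in RSeT+DT, 687 and 713 in RSeT, and 619 and 635 in primed cells. THE1A, the youngest, was high only in RSeT, with 375 and 392 CPM in RSeT+DT, 428 and 453 in RSeT, and 387 and 386 in primed cells.

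Among the internal regions, THE1C-int was the only entry of the 8 whose lowest level was in primed cells in both libraries, with 272 and 280 CPM in RSeT+DT, 355 and 369 in RSeT, and 223 and 232 in primed cells. THE1D-int overlapped between RSeT+DT and primed cells, with 573 and 581 CPM in RSeT+DT, 642 and 657 in RSeT, and 557 and 607 in primed cells. THE1B-int followed the order of THE1C, with 742 and 760 CPM in RSeT+DT, 1019 and 1068 in RSeT, and 942 and 987 in primed cells. All 3 groups of THE1A-int also stood apart, with 438 and 452 CPM in RSeT+DT, 532 and 544 in RSeT, and 473 and 481 in primed cells. The scarce THE1-int had 155 and 124 counts (11.9 and 10.8 CPM) in RSeT+DT, 545 and 253 counts (14.2 and 14.7 CPM) in RSeT, and 282 and 260 counts (16.7 and 19.1 CPM) in primed cells. Unlike the 8 lettered entries, it was highest in primed cells.

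**Figure D1:**
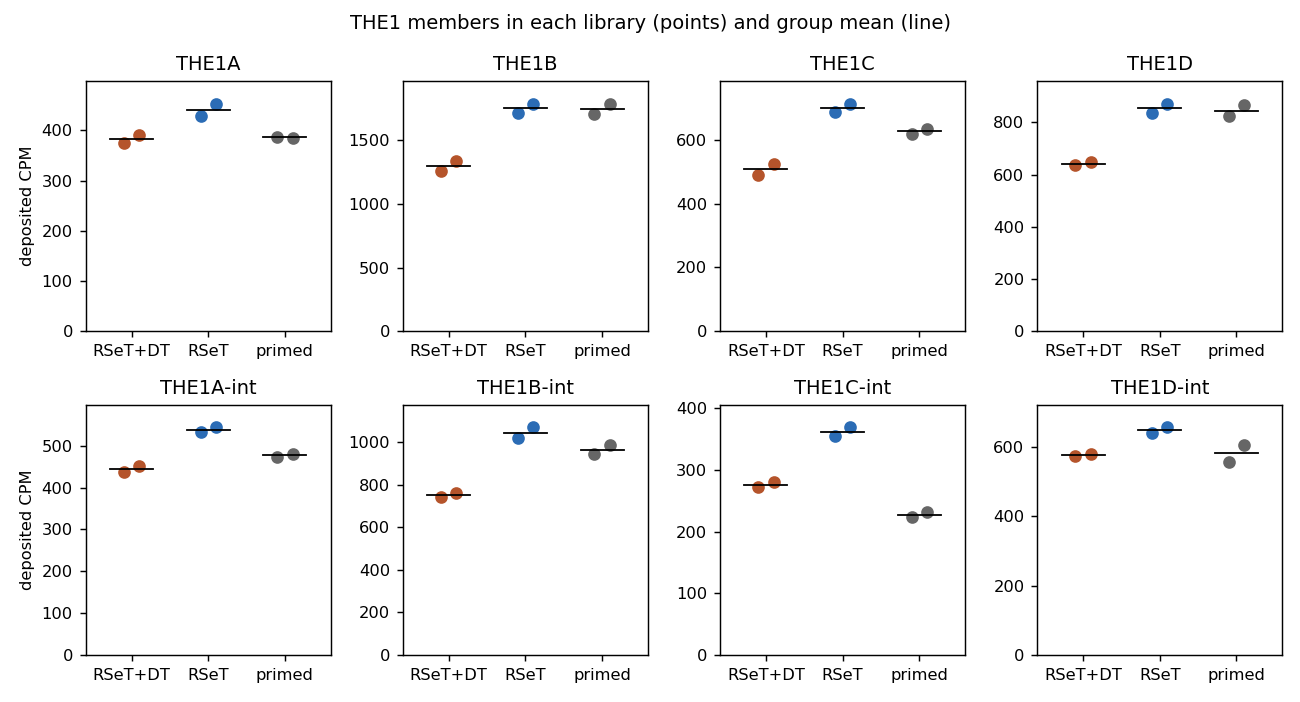
Deposited CPM of the 8 THE1 entries (y axis, from 0) in RSeT+DT, RSeT and primed cells (x axis); each point is a library and each line the mean of 2. The RSeT points are the highest group mean in all 8 panels, and THE1C-int is the panel in which both primed points lie lowest, at 223 and 232 CPM.

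RSeT against primed cells asks how the naive-like culture differs from the conventional one. All 8 THE1 entries were higher in RSeT in edgeR's quasi-likelihood test with TMM scaling over all tested features, with log2 fold changes from 0.14 to 0.80 and a median of 0.29, although THE1B and THE1D changed sign under another scaling. In the same test 22.8% of all 4665 tested features and 51.1% of the 1232 features other than simple repeats were called higher, and the median log2 fold change of these 1232 was 0.17. The largest rise was that of THE1C-int (log2 fold change 0.80, SE 0.036, adjusted p = 1.12e-15, edgeR), which lay above 90.8% of features other than simple repeats. THE1A rose by 0.32 (SE 0.043) and THE1A-int by 0.30 (SE 0.042), followed by THE1D-int and THE1C, each at 0.29 (SE 0.044), and THE1B-int at 0.25 (SE 0.044).

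The 2 LTRs with the smallest log2 fold changes were THE1D (0.15, SE 0.044) and THE1B (0.14, SE 0.042), and for these the direction depended on the scaling. When small RNA, ribosomal RNA and simple repeats were left out before normalization, which is called interspersed scaling here, THE1D stood at -0.014 and THE1B at -0.025, neither called. The median over the 1151 features left in that fit was 0.0014, so fold changes under that scaling can be read as changes relative to other repeats. Under it 6 of the 8 entries were called higher and none lower, where 30.1% of the 1151 features were called higher and 26.5% lower. THE1C-int stood at 0.64 and THE1A at 0.16. With TMM 23.8% of all features and 8.69% of those other than simple repeats were called lower. THE1-int had a log2 fold change of -0.18 (SE 0.11) that did not pass with TMM, against -0.34 with a call under interspersed scaling.

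THE1C-int, THE1A, THE1A-int, THE1C and THE1D-int, 5 of the 8, were called higher under each of 17 alternative settings. How many other features were called higher under all 17 was not counted, so these 5 have no background to be read against. The log2 fold change of THE1C-int stayed between 0.80 and 0.83 when any 1 library was left out. THE1D did not pass without RSeT replicate 2 (0.14), and THE1B, THE1B-int and THE1D did not pass with library totals in place of TMM, at 0.0046, 0.11 and 0.016.

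Naive-like cells with and without the 2 compounds are compared in RSeT+DT against RSeT. The compounds were given only together, so the part of each cannot be told apart. With TMM, 6 of the 8 entries were called lower and none higher, at a median log2 fold change of -0.25, while interspersed scaling gave 2 lower and 3 higher, with THE1A-int among those higher, and library totals gave 8 lower. Among all features other than simple repeats, 52.6% were called lower and 6.41% higher with a median of -0.22, close to the THE1 median, against 17.4% lower and 25% higher among all tested features. The entries called lower with TMM were THE1B-int (-0.32, SE 0.044), THE1C (-0.31, SE 0.044), THE1B (-0.28, SE 0.042), THE1D (-0.26, SE 0.044) and THE1C-int (-0.24, SE 0.036), with THE1A-int at -0.12 (SE 0.042), whose sign turned under interspersed scaling. THE1A at -0.045 (SE 0.043) and THE1D-int at -0.016 (SE 0.044) did not pass with TMM, and neither did THE1-int at -0.19 (SE 0.12). With library totals all 3 were called lower, THE1A at -0.20 (SE 0.054), THE1D-int at -0.17 (SE 0.059) and THE1-int at -0.35 (SE 0.12), where the median of features other than simple repeats was -0.37. Of these 1232 features 872 were called lower and 38 higher with library totals.

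Relative to other repeats the 8 entries split. Under interspersed scaling THE1D-int (0.20, SE 0.032), THE1A (0.18, SE 0.034) and THE1A-int (0.10, SE 0.031) were called higher, although their fold changes were negative with TMM. THE1B-int (-0.10, SE 0.029) and THE1C (-0.090, SE 0.031) were called lower under both scalings, while THE1B (-0.057), THE1D (-0.036) and THE1C-int (-0.016) no longer passed. Of the 1151 features in that fit 22.7% were called higher and 20.8% lower, so calls on both sides were not particular to THE1. THE1B-int and THE1C were the 2 entries called lower under every alternative setting. How many other features were called lower in all of them was not counted. The call of THE1A-int with TMM was lost when any 1 of the 4 libraries compared was left out, at -0.12 to -0.11 (-0.11 without RSeT+DT replicate 1 and also without its replicate 2, -0.12 without replicate 1 of RSeT and -0.11 without its replicate 2).

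RSeT+DT against primed cells sets the treated naive-like cells against the conventional culture. With TMM, 4 of the 8 were higher and 2 lower. The entries called higher were THE1C-int (0.57, SE 0.038), THE1D-int and THE1A, each at 0.27 (SE 0.044), and THE1A-int (0.18, SE 0.043). THE1B (-0.14, SE 0.042) and THE1D (-0.11, SE 0.044) were called lower, and THE1B-int (-0.074) and THE1C (-0.020) did not pass. Of all features 25.1% were called higher and 20.6% lower, and of those other than simple repeats 25.1% were higher and 32.9% lower.

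These calls depended on the scaling. THE1C-int was the entry called higher under every alternative, at 0.28 with library totals and 0.62 under interspersed scaling, where 32.3% of features were called higher and 29.6% lower. How many other features were called higher under every alternative was not counted. With library totals THE1A stood at -0.010, THE1A-int at -0.10 and THE1D-int at -0.012, none of them called. THE1D (adjusted p = 0.0474 in edgeR, 4.22e-07 to 0.268 over the alternatives) did not pass when any 1 of the 6 libraries was left out, at -0.11 to -0.068, and THE1B did not pass without primed replicate 2 (-0.13). THE1-int had the lowest log2 fold change of the 9 rows, at -0.37 (SE 0.13) with a call that was lost in DESeq2 (-0.39), without RSeT+DT replicate 2 (-0.25) and without primed replicate 2 (-0.30). The 3 comparisons share libraries, so their values are not independent of each other.

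**Figure D2:**
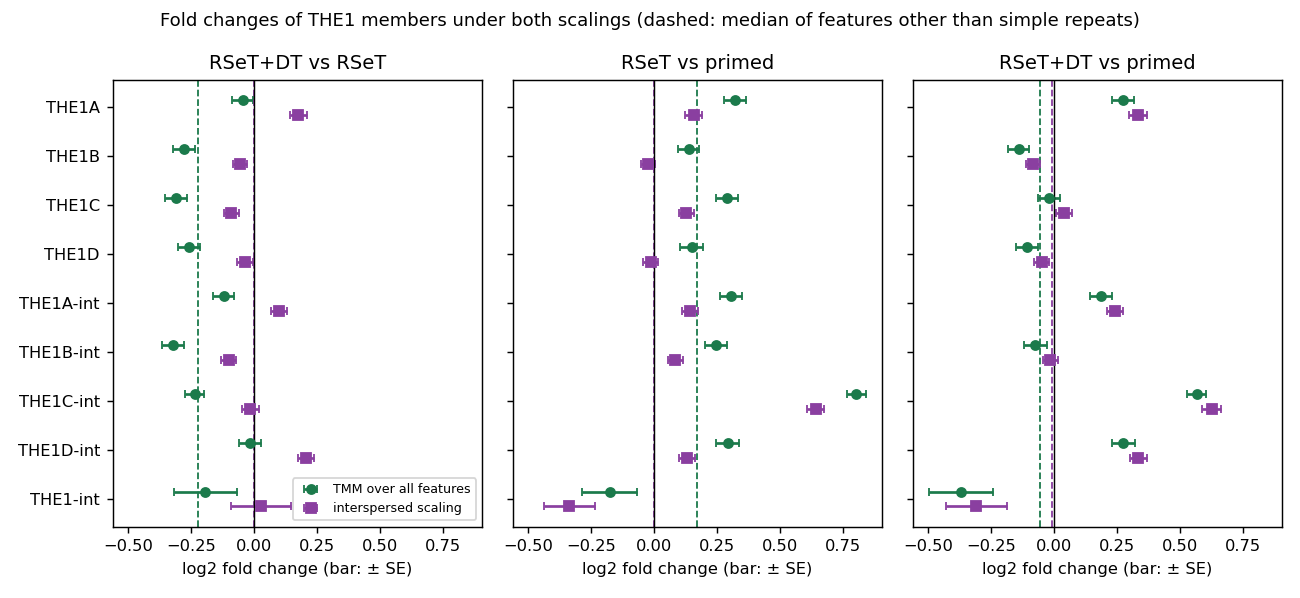
Log2 fold change (x axis, bars ± SE) of the 8 THE1 entries and THE1-int (rows) in 3 comparisons, with TMM over all features (circles) and interspersed scaling (squares); dashed lines are the medians of features other than simple repeats. Under interspersed scaling these medians also leave out small and ribosomal RNA. THE1C-int stands far right in both comparisons with primed cells (0.80 and 0.57 with TMM), and in RSeT+DT against RSeT most circles lie near the dashed line at -0.22.

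A ratio taken within a library does not depend on how libraries are scaled. The internal entries summed to 0.734 and 0.715 counts per LTR count in RSeT+DT, 0.696 and 0.690 in RSeT, and 0.622 and 0.629 in primed cells, so the 3 groups did not overlap. In log2 terms RSeT exceeded primed cells by 0.15 (SE 0.010), RSeT+DT exceeded RSeT by 0.064 (SE 0.019) and RSeT+DT exceeded primed cells by 0.21 (SE 0.020). With 2 libraries against 2, the exact two-sided permutation test gave p = 0.333 each time, the smallest it can give.

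The ratio was also taken for each subfamily. THE1C-int had 0.555 and 0.535 counts per THE1C count in RSeT+DT, 0.518 and 0.518 in RSeT, and 0.361 and 0.365 in primed cells. The primed libraries were thus low and the naive-like ones, with and without the compounds, close together. THE1D-int had 0.900 and 0.898 counts per THE1D count in RSeT+DT, 0.768 and 0.754 in RSeT, and 0.677 and 0.702 in primed cells, with RSeT+DT highest. For THE1B the ratio was 0.590 and 0.569 in RSeT+DT, 0.595 and 0.598 in RSeT, and 0.553 and 0.554 in primed cells. THE1A, the subfamily with more internal than LTR counts, was at 1.17 and 1.15 in RSeT+DT, 1.24 and 1.20 in RSeT, and 1.22 and 1.25 in primed cells, where the last 2 groups overlapped.

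**Figure D3:**
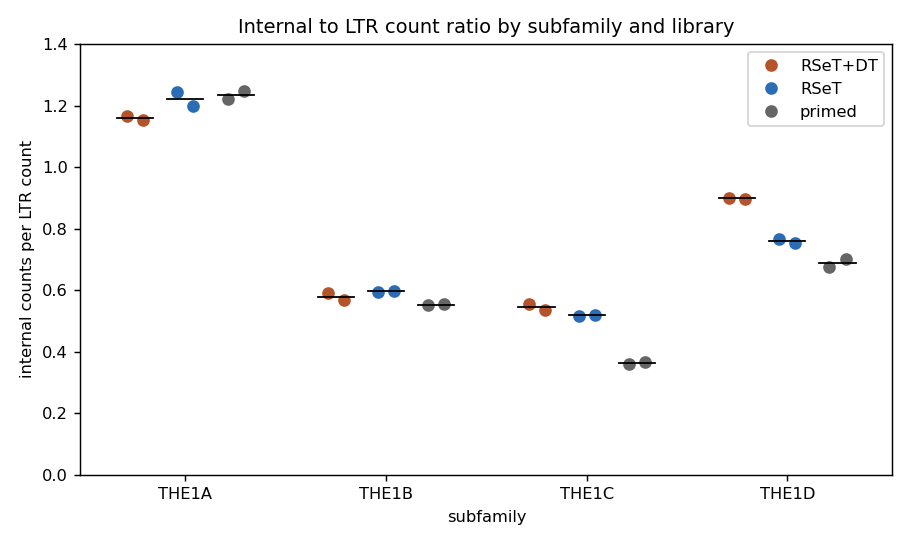
Counts of the internal region per LTR count (y axis, from 0) for each THE1 subfamily (x axis) in RSeT+DT, RSeT and primed cells; points are libraries and lines are geometric means of 2. THE1C shows low primed points (0.361 and 0.365), and THE1D a different level in each group, highest in RSeT+DT (0.900 and 0.898).

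To test these ratios, the log2 ratio of internal to LTR counts was fitted with limma over all 60 repeats that have both entries tested, with adjustment over the 60. This test was added after the ratios had been seen. In RSeT against primed cells the THE1C ratio was higher by 0.51 (SE 0.047, adjusted p = 0.00193, limma), where 30% of the 60 pairs were called higher and 10% lower. The THE1D (0.14), THE1B (0.11) and THE1A (-0.016) ratios did not pass. In size the THE1C difference ranked 18th of 60, with the first place for the largest.

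In RSeT+DT against primed cells the THE1C ratio was higher by 0.59 (SE 0.047, adjusted p = 0.0015, limma) and the THE1D ratio by 0.38 (SE 0.047, adjusted p = 0.00332, limma), where 28.3% of pairs were called higher and 15% lower. Both calls held when any 1 library was left out, as did that of THE1C in RSeT against primed cells. In RSeT+DT against RSeT the THE1D ratio was called higher (0.24, SE 0.047, adjusted p = 0.0427, limma), where 5% of pairs were called higher and 5% lower. That call was lost on leaving out any 1 of the 6 libraries, at differences of 0.23 to 0.25, and the THE1A (-0.075), THE1B (-0.043) and THE1C (0.074) ratios did not pass.

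The share of each entry in the summed THE1 counts is also free of the scaling between libraries. THE1C-int took 5.66 ± 0.040% in RSeT+DT, 5.72 ± 0.0064% in RSeT, against 3.89 ± 0.014% in primed cells (SD, n = 2 each). THE1B, the largest part, took 26.6 ± 0.41%, 27.6 ± 0.054% and 29.8 ± 0.077% in RSeT+DT, RSeT and primed cells. THE1D-int took 11.8 ± 0.20% in RSeT+DT, 10.3 ± 0.12% in RSeT, against 9.94 ± 0.30% in primed cells, so RSeT+DT stood apart while RSeT and primed cells differed by about their spread. THE1A took 7.86 ± 0.025% in RSeT+DT, 6.95 ± 0.088% in RSeT, against 6.60 ± 0.21% in primed cells. THE1D took 13.2 ± 0.20% in RSeT+DT, 13.5 ± 0.013% in RSeT, against 14.4 ± 0.071% in primed cells, and THE1B-int took 15.4 ± 0.15%, 16.5 ± 0.095% and 16.5 ± 0.055% in the same 3 groups. RSeT+DT was thus the low group for THE1B-int and primed cells the high group for THE1D.

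Other MaLR elements and older repeats give the context. In RSeT against primed cells 9 of 15 MST elements were called higher and none lower with TMM (median 0.16), and 23 of 56 tested MLT1 elements were higher and 3 lower (median 0.11), beside 8 of 8 for THE1 (median 0.29). MIR and L2, ancient elements that are no longer mobile, had 0 of 12 higher and 2 lower (median -0.0048). The ERVL relatives (MLT2 elements and ERVL or HERVL internal parts) had 14 of 22 higher and none lower with TMM, at a median of 0.19. Under interspersed scaling MST had 3 higher and 2 lower (median -0.0027), MLT1 had 8 higher and 21 lower of 55 (median -0.056), MIR and L2 had 12 of 12 lower (median -0.17) and the ERVL relatives had 7 higher and 4 lower (median 0.026), beside 6 higher and none lower for THE1 (median 0.13). With library totals the counts were 3 higher and 2 lower for MST, 8 and 8 for MLT1, 0 and 7 for MIR and L2, 8 and 1 for the ERVL relatives (median 0.057) and 5 and 0 for THE1 (median 0.16). The largest called rises were those of MSTB2-int (1.45, SE 0.14) and MLT1E1A-int (0.998, SE 0.12), and MLT1E3-int had the largest fall (-0.99, SE 0.14).

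In RSeT+DT against RSeT the medians of the lists lay close together with TMM. They were -0.25 for THE1, -0.25 for MST with 12 of 15 called lower, -0.24 for MLT1 with 42 of 56 lower and 1 higher, -0.22 for MIR and L2 with 9 of 12 lower, and -0.24 for the ERVL relatives with 16 of 22 lower. MSTB2 (-0.44, SE 0.050) and MLT1E3-int (-0.61, SE 0.19) had the largest falls of their lists, and MLT1E3 (0.17, SE 0.040) was the 1 called rise. Under interspersed scaling few of these calls were left, with 2 lower and 3 higher for MST (median -0.029), 5 and 7 for MLT1 (median -0.019), 0 and 2 for MIR and L2 (median 0.00026) and 2 and 5 for the ERVL relatives (median -0.021), beside 2 and 3 for THE1 (median -0.026). MLT1E3-int (-0.38) was no longer called there. With library totals 12 of 15 MST, 50 of 56 MLT1, 11 of 12 MIR and L2 and 20 of 22 ERVL relatives were lower, beside 8 of 8 for THE1. In RSeT+DT against primed cells the medians with TMM were 0.083 for THE1, -0.031 for MST with 4 higher and 6 lower, -0.15 for MLT1 with 3 higher and 28 lower, and -0.25 for MIR and L2 with 10 lower. The ERVL relatives had a median of -0.038 there, with 5 higher and 6 lower. The sign of the THE1 median depended on the scaling, at 0.14 under interspersed scaling, where that of MST was 0.028 with 6 higher and 5 lower, and at -0.20 with library totals, where that of MST was -0.32 with 1 higher and 11 lower. Under interspersed scaling the medians were -0.096 for MLT1, -0.19 for MIR and L2 and 0.021 for the ERVL relatives. With library totals these were -0.43, -0.53 and -0.32. With TMM, MSTB2-int (1.30, SE 0.16) and MLT1E1A-int (1.03, SE 0.13) had the largest rises, and MSTA1 (-0.42, SE 0.089) and MLT1E3-int (-1.60, SE 0.18) the largest falls.

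Within a library, there were 0.269 and 0.271 THE1 counts per count of MST and MLT1 in RSeT+DT, 0.271 and 0.271 in RSeT, and 0.245 and 0.245 in primed cells. Both naive-like groups thus stood above primed cells and overlapped each other. The log2 difference was 0.15 (SE 0.0028) for RSeT against primed cells, 0.14 (SE 0.0058) for RSeT+DT against primed cells and -0.0072 (SE 0.0058) for RSeT+DT against RSeT. The exact permutation test gave p = 0.333, its smallest, for the first 2 and 0.667 for the last. Against MST alone the log2 differences were 0.081, 0.047 and -0.034, and against MIR and L2 they were 0.26, 0.24 and -0.020, in the same order of comparisons.

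**Figure D4:**
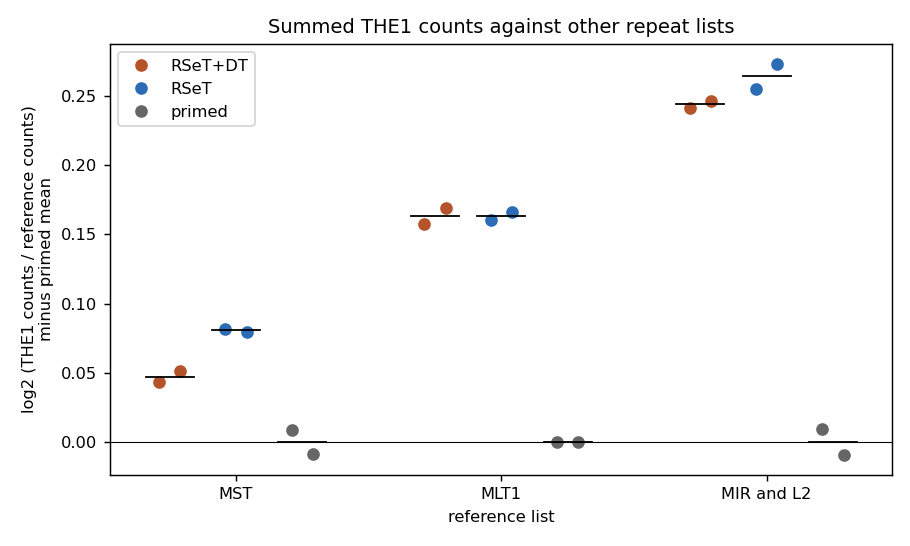
Log2 ratio of summed THE1 counts to the summed counts of MST, MLT1, or MIR and L2 (x axis), minus the primed mean (y axis), in RSeT+DT, RSeT and primed cells; points are libraries and lines are means of 2. RSeT+DT and RSeT points lie above the primed points for all 3 lists, by 0.24 and 0.26 for MIR and L2.

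The repeats whose profile was most like that of THE1 were sought among 1130 other entries with a mean count of at least 50, by the root mean square distance between log2 CPM profiles over 6 libraries, each centred on its own mean. Nearest to the summed THE1 LTRs were MLT1I-int (0.015), MLT1N2 (0.017), MLT2A1 (0.018), MLT1A1 (0.019) and MER63A (0.020). Nearest to the summed internal regions were ERVL-B4-int (0.020), HERV16-int (0.024), MSTA-int (0.029), MER8 (0.032) and LTR8 (0.035). ERVL-B4-int, for example, had log2 fold changes of -0.18 for RSeT+DT against RSeT and 0.37 for RSeT against primed cells. All 6 libraries also share depth and scaling factors with THE1, so the distances are a description.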

How the data were processed

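The authors deposited raw counts per named repeat and a CPM table of 7383 of these entries, whose values equal counts scaled to the sum of the listed entries within 0.00442 CPM. Per the submitters' processing notes, the build was GRCh38/hg38 and the tools were featureCounts, Subread 2.14.2, STAR 2.7.8a and Trimmomatic 0.39. The sources used here do not give their roles, the repeat annotation, the strand setting or the treatment of reads with many positions. Per the labels' protocols, libraries came from a stranded total RNA kit.

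The deposited counts were tested with edgeR 4.0.16 (R 4.3.3; quasi-likelihood test, TMM, filterByExpr with at least 10 counts and a total of 15), all 6 libraries in 1 fit with group as the only term, which left 4665 features. P-values were adjusted by Benjamini-Hochberg over all features, at 0.05. The SE of an edgeR log2 fold change is its size over the square root of its F value. That of a ratio fitted with limma is limma's moderated SE, and that of a summed ratio comes from the variances of the libraries in each group. Ratios of internal to LTR counts used limma 3.58.1 on log2 ratios with 0.5 added to both counts. Alternatives included RLE factors, library totals, interspersed scaling, other filters, DESeq2 1.42.0, limma on log2 CPM, the replicate block and each library left out.

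The fit was tested on simulated data. By the rule for named repeats these are the 8 entries, the largest called rise and fall of MST and of MLT1, and the 5 nearest profiles of the LTRs and of the internal regions. THE1-int, HERVH-int, HERVK-int, LTR17, MER50-int, MLT2A2, HERVL-int and 7SLRNA are named outside that rule, and were chosen with their values known. Members, lists and tests were chosen with earlier results of these data known. Whether replicates are separate cultures is not stated in the labels; p-values therefore cover only the spread between these libraries, possibly a technical one. No pair of replicates was a repeat deposit, as their counts differed beyond sampling noise (chi-square over its degrees of freedom was 16.9 for RSeT+DT, 4.87 for RSeT and 26.3 for primed cells).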

Additional observations from a re-analysis of the deposited data

How the results depend on the processing

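For RSeT+DT against RSeT, interspersed scaling gave 3 members higher and 2 lower, against 0 and 6 with TMM. It turned THE1A (0.18), THE1A-int (0.10), THE1D-int (0.20) and THE1-int (0.027) positive. The median also moved, from -0.22 over the 1232 features other than simple repeats with TMM to -0.0017 over the 1151 features left under interspersed scaling. Simple repeats made up 3433 of the 4665 features tested with TMM. Why they and the other repeats differed was not tested. Library totals and limma with either pseudocount each gave 8 lower there, and a mean count of at least 50 gave 7. Of features other than simple repeats, 872 of 1232 were lower with library totals and 749 of 1139 with the mean count filter. With limma 865 of the 1232 were lower at either pseudocount. For RSeT against primed cells, interspersed scaling turned THE1B (-0.025) and THE1D (-0.014) negative. Library totals and limma with either pseudocount each gave 5 members higher there, against 8. Of the 1232 features other than simple repeats, 376 were higher and 210 lower with library totals. With limma 358 were higher and 195 lower at a pseudocount of 1, and 349 and 187 at 0.1. For RSeT+DT against primed cells, library totals and limma with either pseudocount each gave 1 higher and 4 lower, against 4 and 2, and interspersed scaling gave 1 lower, with THE1C at 0.038. With library totals 141 of the 1232 features other than simple repeats were higher there and 724 lower. With limma 145 were higher and 737 lower at a pseudocount of 1, and 143 and 731 at 0.1. Library totals put THE1A at -0.010, THE1A-int at -0.10 and THE1D-int at -0.012, and limma put them at -0.011, -0.10 and -0.011 with either pseudocount. In the same comparison a mean count of at least 50 gave 4 lower, where 494 of 1139 features other than simple repeats were lower. Using only the groups compared or thinning the deeper RSeT library to the depth of the other (added after the totals were seen) gave 1 lower. Of features other than simple repeats, 377 of 1219 and 406 of 1232 were lower in these 2 settings.

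Leaving out each library in turn put THE1C at -0.022 to 0.013 in RSeT+DT against primed cells. It put THE1D-int at -0.023 to 0.0099 in RSeT+DT against RSeT. With 1 library left in a group, that library is assumed to vary like the others. The THE1A ratio of internal to LTR counts in RSeT against primed cells was -0.041 to 0.0098. The summed internal to LTR difference of RSeT against primed cells was 0.19 as the mean of the 4 subfamily log2 ratios. THE1 against MST only gave -0.034, 0.081 and 0.047 for RSeT+DT against RSeT, RSeT against primed and RSeT+DT against primed cells, against MLT1 only 0.16 and 0.16 for the last 2, and against MIR and L2 -0.020, 0.26 and 0.24. With the replicate block, 6 members were lower in RSeT+DT against RSeT and no call of a member differed from the fit without it. Of the 1232 features other than simple repeats, 645 were lower and 82 higher with the block. Deviations of same-numbered libraries from their group means had correlations of -0.049 to 0.16 over features other than simple repeats, and the labels do not say that the numbers mark a shared culture. Over 408 member values under 17 alternatives, 348 kept direction and call, 27 lost the call, 15 gained a call and 18 changed sign. The same tally was not made for other features. With 2 libraries a group and small fold changes, the choice of scaling limits what can be said of direction.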
